A study of Mus musculus with 47 samples.

Results

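The 10 immediate early genes *Fos*, *Fosb*, *Junb*, *Egr1*, *Egr2*, *Egr4*, *Arc*, *Npas4*, *Nr4a1* and *Ier2* were followed in the cortex over the day, with and without microglia. Each symbol was matched through the GENCODE M21 annotation to an Ensembl identifier among the 54281 genes of the expression table, and all 10 were among the 14580 tested, those whose level averaged 1 TPM or more (TPM is transcript abundance scaled to gene length and to the library total). The mice were C57BL/6J males, about 3 months old when sampled, under a 12 h light and 12 h dark cycle, in which Zeitgeber time 0 (ZT0) is lights-on and ZT12 is lights-off. For 10 days, 23 mice ate control diet and 24 ate the same chow with 1200 ppm PLX5622, an inhibitor of the CSF1R receptor on which microglia depend. Whole cortex of 1 hemisphere was taken at ZT2, ZT6, ZT10, ZT14, ZT18 or ZT22 from 4 mice per diet and time, with 3 in the control group at ZT14.

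Immediate early genes are the first genes a cell transcribes after a stimulus, without a need for new protein. In cortical neurons, calcium entry during synaptic activity switches them on through kinases that act on the transcription factors CREB and SRF, and their short-lived RNAs are used as a record of recent neuronal activity. *Fos*, *Fosb* and *Junb* encode subunits of the transcription factor AP-1. *Egr1*, *Egr2* and *Egr4* encode zinc finger transcription factors, *Npas4* a transcription factor induced almost solely by neuronal activity, and *Nr4a1* an orphan nuclear receptor. *Arc* encodes a synaptic protein that takes part in the removal of AMPA receptors, and *Ier2* encodes a nuclear protein that responds quickly to growth factors. Mice are nocturnal, so the dark phase is their active phase.

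The counts per library ranged from 16597987 to 27626161, and mitochondrial genes took 6.46% to 10.0% of them. All 7 markers of excitatory and all 7 of inhibitory cortical neurons were measured. The 8 microglial markers summed to 362 to 580 TPM in control mice and to 17.9 to 84.4 TPM in PLX5622 mice, and all 8 were called lower. In bulk tissue, fewer cells and less RNA per cell cannot be told apart. Each group's labels also carry a block of consecutive code numbers, and the mouse with the fourth number of its block, here called the fourth-coded mouse, stood apart for the immediate early genes in nearly every group. This mouse has the title number 4 in 11 groups and 3 in the control group at ZT14, whose block lacks 1 code. The pattern was noticed in the values, so the members' results below are given for all 47 mice and for the 35 mice without it. Mice were housed 4 to a cage, and the labels do not say what the code numbers record. The p-values measure the spread between these mice. The cage of each mouse is not given. If a group was 1 cage, a diet difference at a single time cannot be told apart from a difference between cages or collections. The same holds for a difference between times within a diet. The p-values of the fits over the day would then treat mice of 1 cage as independent.

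The upstream sequences of the genes are shown because the members moved together between mice. RefSeq (GRCm38.p6) gave the 250 bases before a transcript start of 7 members, and *Arc*, *Egr1* and *Ier2* were not in that table. The cAMP response element half-site, TGACG on either strand, was present in all 7, against 19.8% of 27018 genes. The full palindrome TGACGTCA, which contains the half-site on both strands, was in none of the 7 and in 1.77% of all genes. In the lines below, capitals mark the half-site on either strand and, in *Egr2* alone, the CArG box, the sequence that SRF binds.
*Fos*, chr12:85473640-85473889, plus strand: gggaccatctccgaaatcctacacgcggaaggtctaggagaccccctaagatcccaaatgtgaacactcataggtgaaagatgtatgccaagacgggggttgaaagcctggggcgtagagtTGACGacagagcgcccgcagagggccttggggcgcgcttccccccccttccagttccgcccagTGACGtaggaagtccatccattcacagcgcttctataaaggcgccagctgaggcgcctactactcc
*Junb*, chr8:84978749-84978998, minus strand: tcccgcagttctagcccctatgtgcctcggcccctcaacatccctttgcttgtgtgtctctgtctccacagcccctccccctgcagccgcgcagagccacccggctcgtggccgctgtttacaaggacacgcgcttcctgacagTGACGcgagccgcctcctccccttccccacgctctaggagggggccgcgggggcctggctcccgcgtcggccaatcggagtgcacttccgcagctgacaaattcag
*Egr2*, chr10:67537619-67537868, plus strand, in an intron of the longer transcripts: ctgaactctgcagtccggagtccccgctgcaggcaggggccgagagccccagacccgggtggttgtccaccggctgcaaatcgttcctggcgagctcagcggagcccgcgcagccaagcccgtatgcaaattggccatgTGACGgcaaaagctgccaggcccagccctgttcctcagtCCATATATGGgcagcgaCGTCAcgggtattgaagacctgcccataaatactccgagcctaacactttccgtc
*Egr4*, chr6:85513590-85513839, minus strand: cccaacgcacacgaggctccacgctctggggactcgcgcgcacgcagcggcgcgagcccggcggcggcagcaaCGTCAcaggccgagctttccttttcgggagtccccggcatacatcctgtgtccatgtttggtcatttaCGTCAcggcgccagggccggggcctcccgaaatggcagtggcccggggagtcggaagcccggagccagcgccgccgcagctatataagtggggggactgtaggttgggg
*Nr4a1*, chr15:101266596-101266845, plus strand, at an internal start inside the gene: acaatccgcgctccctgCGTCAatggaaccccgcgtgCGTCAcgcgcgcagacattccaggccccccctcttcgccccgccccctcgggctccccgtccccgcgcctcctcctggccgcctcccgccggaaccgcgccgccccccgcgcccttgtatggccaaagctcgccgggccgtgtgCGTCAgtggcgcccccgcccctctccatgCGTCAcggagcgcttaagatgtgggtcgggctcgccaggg
*Npas4*, chr19:4990131-4990155, minus strand, inside the GENCODE gene, the half-sites alone: ttcgaCGTCAcgggaTGACGtcgga
In GENCODE *Nr4a1* spans chr15:101254269-101274795 and *Npas4* chr19:4984355-4990316, so that both windows lie within the gene and the distances are from the RefSeq start. The half-site nearest to that start began 66 bases before it in *Fos*, 106 in *Junb*, 55 in *Egr2*, 109 in *Egr4*, 40 in *Nr4a1* and 169 in *Npas4*. *Fos* also had a TATA box (TATAAA), 33 bases before the start, as had 14.3% of genes. Of the 7 members with a window, *Egr2* alone had a CArG box in these 250 bases, as had 1.62% of genes. Sequence farther upstream, and any of *Arc*, *Egr1* and *Ier2*, was not examined. The site of the EGR factors themselves, GCGGGGGCG, was found in *Fosb* and *Nr4a1* and in 2.93% of genes. These matches describe the letters in these windows and no binding was measured.

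Over all mice, *Arc* had the highest mean level at 74.2 TPM, followed by *Egr1* at 68.1, *Junb* at 38.2, *Nr4a1* at 29.9, *Egr4* at 19.1, *Fos* at 12.7, *Ier2* at 8.03, *Npas4* at 4.44, *Fosb* at 4.30 and *Egr2* at 1.82 TPM. The *Egr2* counts were as low as 4 in a library, which limits its precision, and 351 bases of *Junb* overlap *Prdx2* on the opposite strand, whose reads can be told from those of *Junb* only where strand was used in counting. In GRCm38, *Arc* lies at chr15:74669083-74672570 and *Fosb* at chr7:19302696-19310051, both on the minus strand. Between mice of the same group these genes varied more than most. The standard deviation of their log2(TPM + 1) within groups lay between the 90.1 and 98.9 percentiles of all tested genes. Without the fourth-coded mice it lay between the 41.7 and 93.8 percentiles, with *Fosb* and *Npas4* (57.2) the least variable and *Arc* the most.

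The fourth-coded mouse of each group had the highest level of its group in 112 of the 120 combinations of gene and group. *Junb*, *Egr2* and *Npas4* were highest in it in all 12 groups, which held for 5 of the 14580 genes (0.0343%), the others being *Dusp6* and *Ccn1*. All 10 members were highest in it in at least 10 groups, against 0.405% of genes. The exceptions lay mostly in the control group at ZT18, where this mouse was highest for 4 of the 10 members, against 9 or 10 in each other group.

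*Npas4* separated the mice completely. It ranged from 7.45 to 16.3 TPM, with a median of 9.80, in the 12 fourth-coded mice and from 1.01 to 6.95 TPM, with a median of 2.05, in the 35 others. No fourth-coded mouse, at any time or on either diet, was as low as the highest of the others, and *Npas4* was the only gene tested of which this was true (0.00686%). *Fos* ranged from 14.1 to 39.3 TPM (median 22.2) against 1.17 to 31.1 (median 6.09), so its groups overlapped. *Junb* ranged from 44.1 to 96.7 TPM (median 63.9) against 14.2 to 72.9 (median 21.6), and *Arc* from 54.5 to 240.4 TPM (median 93.3) against 13.7 to 172 (median 43.3). In the control group at ZT10 *Npas4* was 16.3 TPM against 1.12, 1.31 and 1.44 TPM, *Fos* was 31.6 TPM against 1.17, 1.43 and 3.67 TPM, and *Egr2* was 3.99 TPM against 0.0920, 0.149 and 0.335 TPM. In the control group at ZT18 the *Fos* level of the fourth-coded mouse, 25.3 TPM, lay inside the 16.3, 18.8 and 31.1 TPM of the others.

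**Figure D1:**
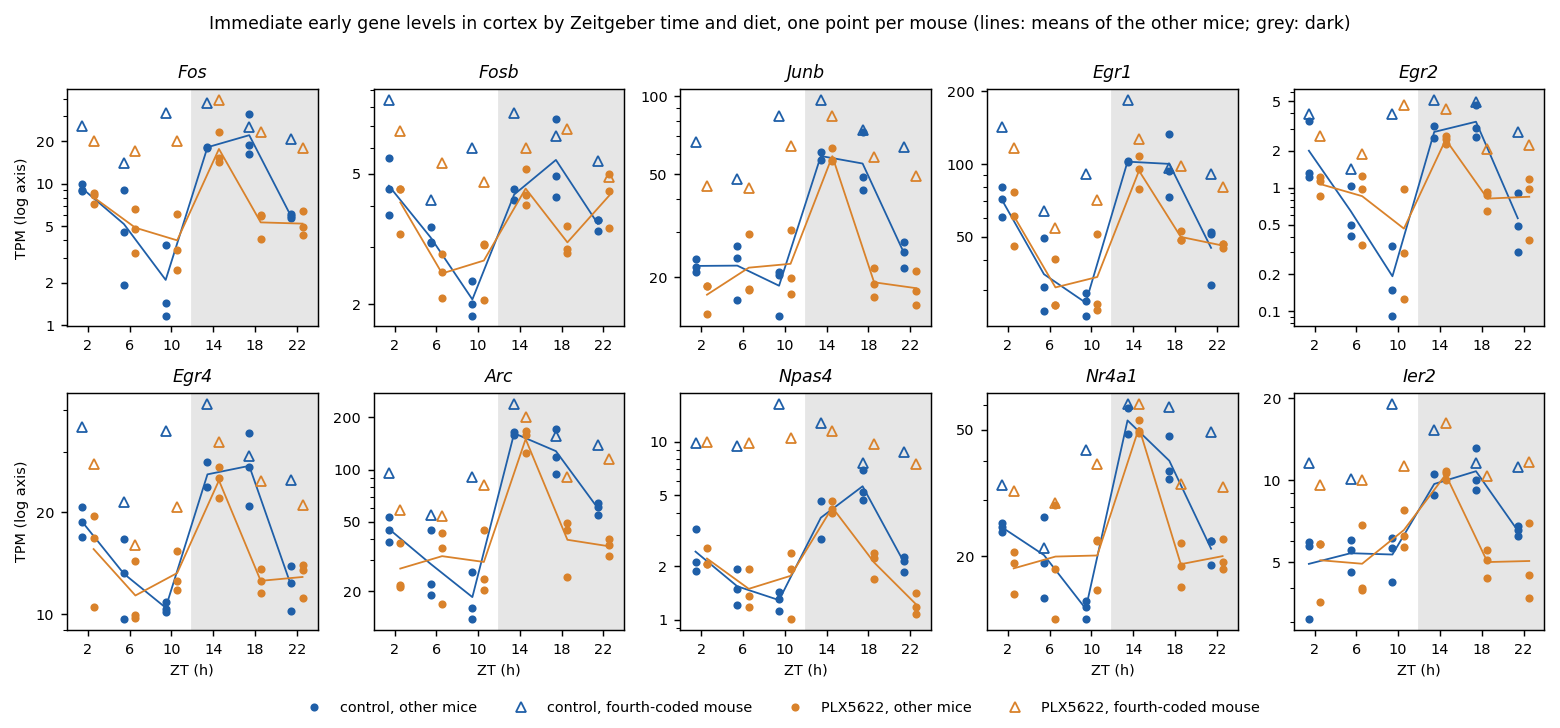
Level in TPM on a log axis against Zeitgeber time for each of the 10 genes, with 1 point per mouse, control in blue and PLX5622 in orange, triangles for the fourth-coded mice and lines through the means of the other mice. Grey marks the dark phase. For *Npas4* all 12 triangles lie at or above 7.45 TPM and all 35 other points at or below 6.95 TPM.

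In a limma model on log2(TPM + 1) with the 12 group means and a term for the fourth-coded mouse, 2651 of 14580 genes had an adjusted p under 0.05 (Benjamini-Hochberg over all tested genes, from here on termed called). Of these, 2453 (16.8%) were higher and 198 lower in the fourth-coded mice. That split depended on the scaling, with 1187 higher and 913 lower after median-of-ratios scaling, and 1645 higher and 1163 lower by edgeR on the counts, while all 10 members were called higher under each. Because these mice were noticed through the members, the tests describe the size of the difference and are no independent support for it. *Npas4* had the smallest p and the largest difference of all genes, 1.77 on the log2 scale (SE 0.11, adjusted p = 4.31e-14). *Fos* followed with 1.59 (SE 0.17, adjusted p = 3.78e-08), and *Junb* was higher by 1.23 (SE 0.11, adjusted p = 2.65e-10). *Arc* differed by 1.11 (SE 0.15), *Egr2* by 0.97 (SE 0.12), *Egr1* by 0.88 (SE 0.11), *Ier2* by 0.84 (SE 0.09), *Egr4* by 0.74 (SE 0.09), *Nr4a1* by 0.69 (SE 0.10) and *Fosb* by 0.61 (SE 0.07), with adjusted p values of at most 2.58e-05. The median difference was 0.92 over the members and 0.06 over all genes. Within each diet the difference of *Npas4* was 1.71 in control and 1.82 in PLX5622 mice, which differed by 0.11 (SE 0.22), and that of *Fos* was 1.55 and 1.63, which differed by 0.08 (SE 0.34). No gene was called for a difference between the diets in this effect (limma, 471 genes with an unadjusted p under 0.05, adjusted p = 0.9996 for all 10 members).

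**Figure D2:**
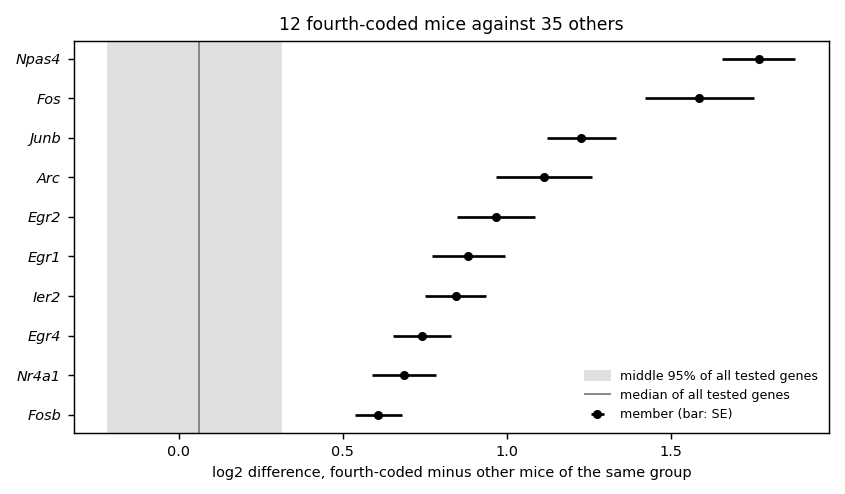
Log2 difference in TPM + 1 between the 12 fourth-coded mice and the 35 others of the same groups, with standard error, for the 10 genes. The grey band holds the middle 95% of all 14580 tested genes, and all 10 genes lie to its right, from 0.61 for *Fosb* to 1.77 for *Npas4*.

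Other measures moved with the fourth-coded mice. The mitochondrial share had a median of 7.72% (6.46% to 9.21%) in them and 8.59% (6.57% to 10.0%) in the others. With that share in the model, 81 genes were called (74 of them higher, 0.508%), and all 10 members remained among them. Of the marker lists, 6 of 7 inhibitory neuron markers were called higher, with sums of 936 to 1097 TPM against 637 to 1049 TPM, and 3 of 7 excitatory neuron markers, with sums of 601 to 963 TPM against 496 to 884 TPM. After median-of-ratios scaling 3 inhibitory and 1 excitatory neuron markers were called higher, and with the mitochondrial share in the model no marker of any list was called. In the first model, of the oligodendrocyte markers 2 of 7 were lower, of the astrocyte markers 1 of 7 and of the choroid plexus markers 1 of 6, while 2 of 7 hippocampal markers were higher. None of the 8 endothelial, 8 microglial, 7 striatal and 5 blood markers was called. The part of the neuronal and glial markers in the result was not tested. The gene count depended on single libraries (1120 genes without the fourth-coded PLX5622 mouse at ZT18), whereas all 10 members were called in each of the 47 fits that left out 1 library.

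Some genes that act beside these 10 were also higher, against 16.8% of all genes. In the model without the mitochondrial share, 8 of the 13 other immediate early transcription factors that were tested were called higher, among them *Csrnp1* (0.53, SE 0.12), *Klf2* (0.22, SE 0.07), *Egr3* (0.24, SE 0.07) and *Bhlhe40* (0.28, SE 0.06). Of 20 activity-induced effectors 13 were higher, led by *Btg2*, an antiproliferative factor (1.01, SE 0.09), and *Ccn1*, a secreted matrix protein (0.86, SE 0.07). Of 10 feedback inhibitors, 8 were higher, led by *Dusp1*, a phosphatase that inactivates MAP kinases (0.93, SE 0.08), and *Dusp6* (0.47, SE 0.06). Of 27 upstream kinases and transcription factors 11 were higher. The lists' median differences were 0.22, 0.26, 0.20 and 0.13 on the log2 scale, and no gene of them was called lower in that model. The counts depended on the scaling. After median-of-ratios scaling 5, 9, 5 and 7 genes of the 4 lists were called higher, against 8.14% of all genes, and 1 feedback inhibitor and 1 upstream gene were called lower. With the mitochondrial share in the model, 7 effectors and 3 feedback inhibitors were called higher and no gene of the other 2 lists.

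Across the day, the highest mean levels fell in the dark phase. In the 35 mice, all 10 members had their highest PLX5622 mean at ZT14, while in control mice 4 had it at ZT14 and 6 at ZT18. The lowest control mean was at ZT10 for 9 members, all but *Ier2*. In PLX5622 mice it fell at ZT6 for 4, at ZT2 for 3, at ZT10 for 2 and at ZT22 for 1. With all 47 mice, the control mean was highest at ZT14 for 8 members and at ZT18 for 2, and lowest at ZT6 for 9.

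In TPM, *Arc* had the widest course. As a ratio, the control means of the 35 mice ranged more widely for *Fos* (2.09 to 22.1 TPM) and *Egr2* (0.192 to 3.43 TPM). Among the 35 mice *Arc* was 159 and 165 TPM in the 2 control mice and 125, 159 and 167 TPM in the 3 PLX5622 mice at ZT14. At ZT18 it was 94.3, 118 and 172 TPM in control mice and 24.2, 44.9 and 49.3 TPM in PLX5622 mice. The 27 mice outside ZT14 and the control group at ZT18 ranged from 13.7 to 64.6 TPM, with a median of 37.0, which is a description, since the control group at ZT18 was set apart after its values were seen. That group overlapped ZT14, reaching 172 TPM for *Arc* and 31.1 TPM for *Fos*, where the lowest mouse at ZT14 had 125 and 14.4 TPM. *Junb* was 56.8 and 60.6 TPM in control and 56.2, 56.5 and 63.2 TPM in PLX5622 mice at ZT14, against 14.2 to 30.5 TPM in the same 27 mice. *Nr4a1* was 48.5 to 58.6 TPM at ZT14 against 12.7 to 29.0 TPM. Between the 5 mice at ZT14 and these 27, no value overlapped for 6 members, *Fos*, *Junb*, *Egr4*, *Arc*, *Nr4a1* and *Ier2*, which held for 0.213% of genes. *Egr1*, *Egr2*, *Fosb* and *Npas4* overlapped. The 3 control mice at ZT18 lay above the same 27 for these 6 members and *Npas4*, against 0.0892% of genes. With the fourth-coded mice included, the ranges overlapped.

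In the order of the control means without the fourth-coded mice, *Arc* went from 162 TPM at ZT14 to 128 at ZT18, 60.2 at ZT22, 45.6 at ZT2, 28.7 at ZT6 and 18.5 at ZT10, and only the last 2 neighbours differed by less than their pooled SD. *Npas4* went from 5.61 TPM at ZT18 to 3.74 at ZT14, 2.42 at ZT2, 2.08 at ZT22, 1.54 at ZT6 and 1.29 at ZT10, where the steps from ZT2 to ZT22 and from ZT6 to ZT10 stayed within the spread. ZT14 and ZT18 lay within each other's spread for *Fos* (18.1 and 22.1 TPM), *Junb* (58.7 and 54.9), *Egr1* (102 and 100.2), *Egr2* (2.83 and 3.43), *Egr4* (25.8 and 27.4) and *Ier2* (9.69 and 10.8). In PLX5622 mice the level at ZT14 stood beyond the spread from the next time for 9 members, the exception being *Fosb* (4.51 TPM at ZT14 and 4.29 at ZT22). Below ZT14 the PLX5622 means of *Arc* lay between 26.9 and 39.5 TPM and those of *Nr4a1* between 18.3 and 20.1 TPM, with no neighbours apart by more than their spread.

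A 24-h cosine with a term for diet, fitted with limma to all 47 mice, was called for 767 genes (5.26%) and for 3 members. *Arc* had an amplitude of 0.93 (SE 0.18, log2) and a peak at ZT16.8 (SE 0.73 h, adjusted p = 0.00202), a 3.61-fold difference between fitted peak and trough. *Nr4a1* had an amplitude of 0.48 (SE 0.11) and a peak at ZT15.9 (SE 0.89 h, adjusted p = 0.0165), and *Junb* 0.56 (SE 0.15) and ZT15.0 (SE 0.97 h, adjusted p = 0.0372). Of the others, *Ier2* (adjusted p = 0.0515) and *Egr1* (0.0607) lay just outside the threshold, and *Npas4* was the only member whose unadjusted p in limma was over 0.05. Leaving out 1 library at a time, *Arc* and *Nr4a1* were called in all 47 fits and *Junb* in 29. Without the 4 control mice at ZT18, 706 genes (4.84%) were called, *Arc* alone of the members.

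Without the fourth-coded mice, 271 genes (1.86%) and 4 members were called: *Arc* (amplitude 0.97, SE 0.19, adjusted p = 0.00751), *Junb* (0.60, SE 0.12, adjusted p = 0.00980), *Ier2* (0.40, SE 0.08, adjusted p = 0.0102) and *Npas4* (0.42, SE 0.10, adjusted p = 0.0421). The SE of the *Npas4* amplitude fell from 0.18 to 0.10 and its peak lay at ZT16.6 (SE 0.89 h). *Nr4a1*, at an adjusted p of 0.0703, was no longer called. Keeping all 47 mice with a term for the fourth-coded mouse, 924 genes (6.34%) and 8 members were called, all but *Egr2* and *Egr4*. The fitted peaks of the 35 mice ran from ZT15.2 for *Junb* and *Ier2* to ZT18.3 for *Egr1* and ZT20.3 (SE 0.96 h) for *Fosb*, the latest of the 10.

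**Figure D3:**
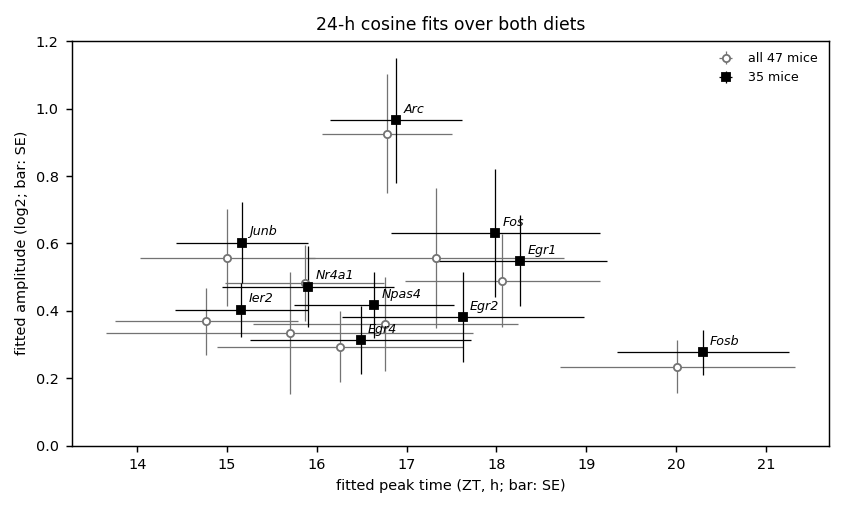
Amplitude in log2 units against fitted peak time from 24-h cosine fits over both diets, with standard errors, for all 47 mice (open circles) and the 35 mice without the fourth-coded (filled squares, named). Apart from *Fosb*, the genes peak between ZT14.8 and ZT18.3, and *Arc* has the largest amplitude in both fits.

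Within each diet, JTK_CYCLE, a rank test for 24-h cycles, called 11 genes (0.0754%) in control and 89 (0.61%) in PLX5622 mice, and no member in either. The smallest adjusted p of a member was that of *Arc*, 0.180 in control mice with a peak at ZT18 and 0.324 in PLX5622 mice with a peak at ZT14. At an unadjusted p under 0.05, 4 members in control and 3 in PLX5622 mice passed JTK_CYCLE, as did 1243 and 1615 of all genes, and a limma F test within each diet also called no member. In the 35 mice JTK_CYCLE called 0.00686% of genes in control and 0.0274% in PLX5622 mice, and no member, while 887 genes with 6 members in control and 1102 genes with 3 members in PLX5622 mice had an unadjusted JTK_CYCLE p under 0.05. In every member the best JTK_CYCLE phase was ZT18 in control mice. In PLX5622 mice it was ZT18 for *Fos* and *Egr1*, ZT22 for *Fosb* and ZT14 for the other members. No gene (0.0%) was called for a difference in rhythm between diets (limma, 669 genes and 0 members with an unadjusted p under 0.05). In the 35 mice again none was called, 564 genes had an unadjusted p under 0.05 in limma, and 4 members, *Junb*, *Arc*, *Npas4* and *Ier2*, were among them (0.0294, 0.0308, 0.0242 and 0.0242, limma). Their fitted peaks were at ZT16.7, ZT18.2, ZT18.0 and ZT16.7 in control and at ZT13.2, ZT14.9, ZT14.1 and ZT13.1 in PLX5622 mice. In the other members the control and PLX5622 peaks were ZT18.6 and ZT17.7 for *Egr1* and ZT20.4 and ZT20.1 for *Fosb*. They were ZT18.7 and ZT15.7 for *Fos*, ZT18.2 and ZT15.9 for *Egr2*, ZT17.7 and ZT14.5 for *Egr4*, and ZT17.5 and ZT14.0 for *Nr4a1*. No SE was computed for peaks within a diet.

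Between diets over the whole day, 503 genes (3.45%) were called by limma and none of the 10 members, of which none had an unadjusted p under 0.05. In the 35 mice none was called either, against 2.4% of genes. With all 47 mice the members' log2 differences, PLX5622 minus control, lay between -0.09 for *Fosb* and -0.38 for *Arc* (SE 0.25, adjusted p = 0.458), with a median of -0.20 against 0.03 over all genes. *Arc* averaged 84.5 TPM in control and 64.4 TPM in PLX5622 mice, and *Fos* 14.1 and 11.4 TPM. Of the pathway lists, the only gene called was *Zfp36*, which encodes a protein that destabilises messenger RNAs (-0.25, adjusted p = 0.00509), and it was again the only one in the 35 mice (-0.24, adjusted p = 0.0171).

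At ZT18 the diets lay apart in the mice that were not fourth-coded. In the control group *Junb* was 43.2, 48.7 and 72.9 TPM, with 74.1 in the fourth-coded mouse, while in the PLX5622 group it was 16.8, 18.8 and 21.7 TPM, with 58.1 in the fourth-coded mouse. *Fos* was 16.3, 18.8, 31.1 and, in the fourth-coded mouse, 25.3 TPM against 4.06, 5.95, 6.00 and 23.4 TPM. *Npas4* was 4.71, 5.18, 6.95 and 7.63 TPM against 1.71, 2.22, 2.37 and 9.65 TPM, again with the fourth-coded mouse last. In each of these 3 genes the 3 other PLX5622 mice were below every control mouse and the fourth-coded PLX5622 mouse was within or above the control range. For *Arc*, *Nr4a1* and *Egr2* the fourth-coded PLX5622 mouse too was below every control mouse, at 90.2 TPM against 94.3 to 172, at 33.7 TPM against 35.1 to 58.9 and at 2.06 TPM against 2.57 to 4.91. For *Fosb*, *Egr1*, *Egr4* and *Ier2* it lay within the control range. The share of all genes with such separations was not computed for sets that include fourth-coded mice.

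With all 8 mice at ZT18, limma called 118 genes (113 lower, 0.775%) and no member, though all 10 were lower, by 0.47 to 1.46 on the log2 scale, and 7 had an unadjusted p under 0.05, as had 799 of all genes. Without the fourth-coded mice, 127 genes (120 lower, 0.823%) and 9 members were called lower. *Junb* fell by 1.45 (SE 0.21, adjusted p = 9.41e-05), *Npas4* fell by 1.09 (SE 0.18, adjusted p = 3.64e-04), *Fos* fell by 1.83 (SE 0.33, adjusted p = 0.00148) and *Arc* fell by 1.69 (SE 0.34, adjusted p = 0.00608). *Egr4*, *Egr2*, *Nr4a1*, *Ier2* and *Fosb* had adjusted p values from 0.00227 to 0.0341, and *Egr1* was not called (-0.95, SE 0.26, adjusted p = 0.120). The median was -1.06 over the members and -0.02 over all genes. In all 10 members the 3 control mice lay above the 3 PLX5622 mice, as in 6.67% of genes. With a term for the fourth-coded mouse in place of leaving it out, 7 members were called among 126 genes lower (0.864%).

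The contrast without the fourth-coded mice was set up after the values were seen, and it leaned on single mice. Without control mouse 2, which had the highest *Fos* of that group, 4 members stayed called, and without PLX5622 mouse 3, 5 did. At ZT2, ZT6, ZT10, ZT14 and ZT22, limma called no member, against 1.29%, 1.01%, 1.07%, 0.905% and 1.3% of genes. In the 35 mice it again called none, against 1.12%, 0.754%, 0.864%, 0.706% and 1.06% of genes. At ZT2 all 10 differences, PLX5622 minus control, were below 0, with a median of -0.27 against 0.06 over all genes. In the 35 mice 9 of 10 were below 0. At ZT10 all 10 differences were above 0, with a median of 0.12 against 0.05 over all genes. In the 35 mice the median was 0.27 against 0.04 over all genes. There *Nr4a1* (0.51, SE 0.21, adjusted p = 0.611) and *Fos* (0.71, SE 0.33, adjusted p = 0.759) had an unadjusted p under 0.05 in limma, as had 922 genes. By edgeR on the counts of all mice only 3 of the 10 were above 0 at ZT10. At ZT6, ZT14 and ZT22 the differences of 4, 1 and 4 members were above 0, and of 3, 3 and 4 in the 35 mice. The members move together between mice, so the signs of the 10 are not independent. The difference between the diet effect at ZT18 and its mean at the other times was tested too. ZT18 was picked after its values were seen, so this contrast describes a size and is no independent support. Its adjusted p does not allow for the choice among the times. With all 47 mice it was called for no gene (0.0%) by limma, and 339 genes, 4 members among them, had an unadjusted p under 0.05. Without the fourth-coded mice it was called for 6 genes (0.0412%), 3 of them *Fos* (-1.90, SE 0.36, adjusted p = 0.0430), *Junb* (-1.33, SE 0.23, adjusted p = 0.0256) and *Npas4* (-1.05, SE 0.19, adjusted p = 0.0339), and with a term for the fourth-coded mouse for 1 gene (0.00686%) that is no member.

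**Figure D4:**
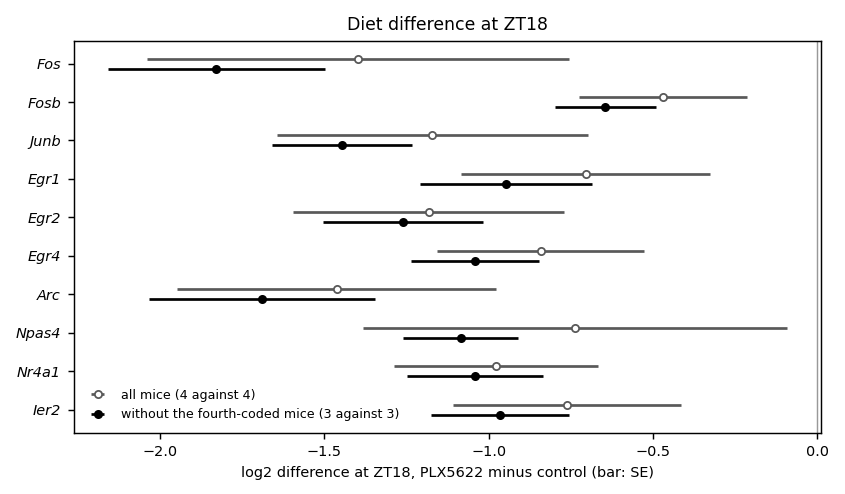
Log2 difference between PLX5622 and control mice at ZT18 with standard error for the 10 genes, for all 8 mice (open) and for the 6 mice without the fourth-coded (filled). All differences are below 0, and those of the 6 mice lie between -0.65 for *Fosb* and -1.83 for *Fos*.

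Covariation between mice was measured on log2(TPM + 1) after each group's mean had been subtracted. Because the fourth-coded mice form a cluster of their own, the 35 others are given first. Over these, 44 of the 45 pairs had a positive Pearson correlation, with a median r of 0.513 (Spearman rho 0.502) and a range from -0.02 to 0.846. *Egr1* and *Egr4* were closest (r = 0.846, permutation p = 3e-05, with rho = 0.807, permutation p = 5e-05, and r = 0.844 without the 2 mice farthest from the median). *Fos* and *Junb* had r = 0.829 (permutation p = 1e-05, the smallest that 100000 permutations can give, with rho = 0.828), *Junb* and *Egr1* r = 0.822 (permutation p = 3e-05) and *Junb* and *Nr4a1* r = 0.801 (permutation p = 2e-05). Of the 45 pairs, 27 had a permutation p under 0.05 for r. With either member as the predictor, 14 passed an adjusted p under 0.05 over all 14579 other genes (limma), and 5 passed with both. The share of all genes that passed differed by predictor. It was 12.1% of genes for *Junb* and 11.9% for *Egr1*, but 0.0206% for *Fos*, 0.0137% for *Egr4* and *Nr4a1*, 0.00686% for *Fosb* and *Ier2*, and 0.0% for *Egr2*, *Arc* and *Npas4*.

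Over the 35 mice, *Npas4* (0.340) and *Ier2* (0.247) had the lowest mean r with the other members, against 0.429 to 0.644 for the rest. Their r with each other was 0.580 (permutation p = 0.00287, rho = 0.566). *Npas4* had 0.235 with *Fos* (permutation p = 0.284) and 0.0932 with *Arc* (permutation p = 0.689). With *Npas4* as the predictor, *Junb*, *Egr1* and *Nr4a1* had unadjusted p values of 0.0266, 0.0421 and 0.0208 (limma). *Ier2* had r = 0.0636 with *Arc* (permutation p = 0.776) and -0.02 with *Egr2* (permutation p = 0.938). With all 47 mice every pair had r between 0.744 and 0.957, with a median of 0.880, and *Npas4* with *Ier2* reached 0.92.

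**Figure D5:**
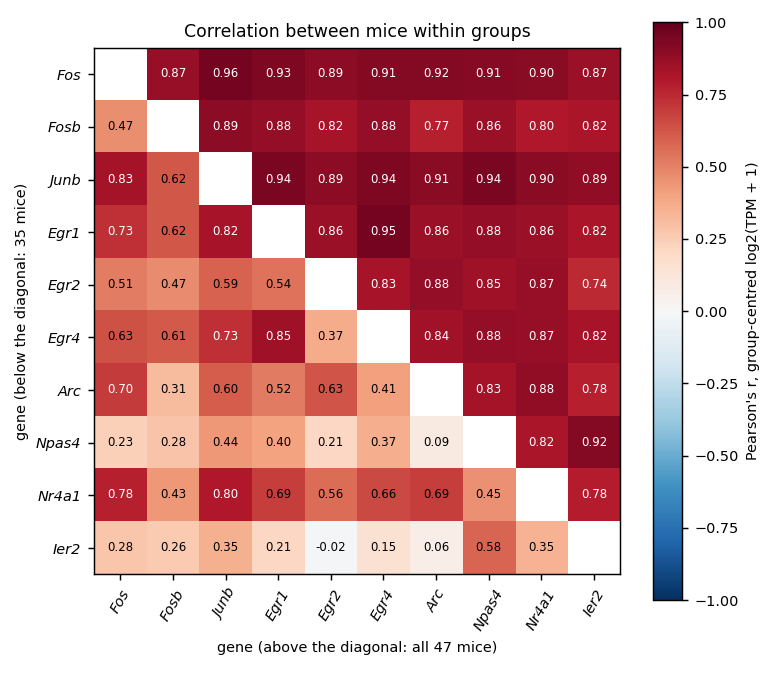
Pearson correlation of group-centred log2(TPM + 1) between the 10 genes, below the diagonal over the 35 mice without the fourth-coded (median 0.513) and above it over all 47 (median 0.880). *Npas4* and *Ier2* have the palest rows below the diagonal.

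The other genes most like the members over all 47 mice, by mean r with the 10, were *Dusp1* (0.911), *Btg2* (0.867), *Dusp6* (0.839), *Ccn1* (0.836), *Arl4d* (0.825), *Adrb1* (0.760), *Tob1* (0.752), *Tyro3* (0.740), *Trib1* (0.738) and *Mex3b* (0.733), against a median of 0.188 over all other genes. Over the 35 mice *Dusp1* (0.627) and *Dusp6* (0.584) again led, the median over other genes was 0.173, and the top 10 of the 2 lists shared these 2 genes. The members' own mean r was lower there too, and 5419 other genes had a higher mean r than the lowest member.

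Some other genes of the pathway also followed the day. In the fit over both diets and all 47 mice, 4 of 13 other immediate early transcription factors were called for a 24-h rhythm: *Csrnp1* (amplitude 0.55, peak ZT12.8), *Bhlhe40* (0.27, ZT14.2), *Egr3* (0.24, ZT21.0) and *Klf2* (0.22, ZT14.2). Of 20 effectors, *Homer1*, which encodes a postsynaptic scaffold (0.33, ZT21.5), and *Tiparp* (0.24, ZT15.4) were called. Of 10 feedback inhibitors, *Dusp1* (0.50, ZT15.2), *Trib1* (0.36, ZT15.6), *Spry4* (0.23, ZT16.7) and *Spry2* (0.12, ZT16.2) were, and of 27 upstream genes *Creb1*, which encodes CREB (0.21, ZT19.5), *Crem* (0.19, ZT23.1) and *Rps6ka2*, a kinase gene (0.18, ZT19.1). These counts stand against the 5.26% of all genes called. In the 35 mice, where 1.86% of all genes were called, *Csrnp1* and *Bhlhe40* remained of the transcription factors, *Homer1* of the effectors, joined by *Btg2* and *Ccn1*, and *Dusp1* and *Trib1* of the feedback inhibitors, and no upstream gene was called.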

How the data were processed

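Cortical RNA from 47 mice was sequenced as paired-end libraries. Per the study's methods, the authors mapped reads with STAR to GRCm38 and estimated transcript abundance with Salmon and the GENCODE annotation, and they deposited TPM, which are scaled to gene length and to the library total. A second deposited table, titled FPKM, holds whole-number counts per gene, and its counter is not given in the sources used here, although the labels list featureCounts beside edgeR, limma and mm10. Strandedness is not given in the sources used here. No other per-sample column was left aside.

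Groups came from the labels. Genes averaging 1 TPM or more were analysed as log2(TPM + 1) with limma 3.58.1 in R 4.3.3, with diet and the cosine and sine of a 24-h cycle. Fold changes on that scale understate those of low genes. JTK_CYCLE was recoded with 6 phases and an exact null distribution in Python 3.11.15. Genes were called at a Benjamini-Hochberg adjusted p under 0.05 over all tested genes. Covariation used 100000 two-sided permutations of mice within groups. Counts were tested with edgeR 4.0.16 and DESeq2 1.42.0 as alternatives. On simulated data, limma was tested for diet, rhythm and the fourth-coded mice, edgeR for diet and rhythm, DESeq2 for diet, and JTK_CYCLE for rhythm. The difference in rhythm was tested there for false calls alone, and the single-time and covariation models were not tested there. No pair of libraries of a group agreed within sampling noise (smallest chi-square per degree of freedom 4.56).

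Other genes were named by a rule: the 10 with the highest mean correlation with the members, the list genes called for diet or rhythm and, after their values were seen, the list genes that led in the fourth-coded mice. The members and lists were chosen with earlier results of these data known. The fits without the fourth-coded mice, or with a term for them, the tests at single times, the fit without the control mice at ZT18, the set of 27 mice outside ZT14 and that group, and the list counts under other settings were chosen after seeing the data. The contrast of ZT18 with the other times was too.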

Additional observations from a re-analysis of the deposited data

Results flagged for a closer look

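In each group of 4 mice, the highest and the lowest value of each gene were compared with the range of the group (Dixon's test), and 39 of 110 combinations of gene and group held a mouse far from the other 3. Chance gives about 5.5 for independent values with a normal distribution. These genes move together in the same mice, so the combinations are not independent. The share of all genes past this rule was not computed, so the count describes these genes alone. All 39 were the fourth-coded mouse and all 39 were the highest value. *Npas4* gave 9 of them. It stood at 9.89, 9.75, 10.5, 11.4, 9.65 and 7.45 TPM in the PLX5622 groups from ZT2 to ZT22 and at 9.39 TPM at ZT6, 16.3 at ZT10 and 8.76 at ZT22 in control mice.

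*Fos* stood apart at 20.1 TPM (ZT2), 23.4 (ZT18) and 17.8 (ZT22) on PLX5622 and at 25.6 (ZT2), 31.6 (ZT10) and 20.9 TPM (ZT22) on control diet. *Junb* did so at the same times, with 45.1, 58.1 and 49.2 TPM on PLX5622 and 66.6, 83.5 and 63.6 TPM on control diet. *Fosb* was far from its group at 6.84 TPM (PLX5622, ZT18), 6.00 TPM (control, ZT10) and 5.48 TPM (control, ZT22).

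*Egr1* was far from its group at 98.1 TPM (PLX5622, ZT18), 80.2 (PLX5622, ZT22) and 90.8 TPM (control, ZT10), *Egr2* at 3.99 TPM (control, ZT10) and *Egr4* at 24.6 TPM (PLX5622, ZT18) and 34.6 TPM (control, ZT10). *Arc* stood apart at 115 TPM (PLX5622, ZT22), 90.8 TPM (control, ZT10) and 139 TPM (control, ZT22). *Nr4a1* did so in control mice alone, at 33.6 TPM (ZT2), 43.2 (ZT10) and 49.3 TPM (ZT22). *Ier2* was at 16.3 TPM (PLX5622, ZT14), 19.1 TPM (control, ZT10) and 11.2 TPM (control, ZT22). In the control group at ZT10, all 10 genes of this mouse were far from the other 3 mice.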

How the results depend on the processing

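No member was called for diet under any alternative, and apart from the principal components the cause of a changed count was not tested. The 3 components came from the residuals of the same model, so they left the fitted differences unchanged and shrank the residual spread. Their higher counts follow from that construction and add no support. For diet, the 503 genes became 298 at a mean of at least 5 TPM, 2558 with 3 residual principal components, 987 with the mitochondrial share, 1243 by edgeR (1278 with no filter) and 1349 by DESeq2. For rhythm, the 767 genes became 1336 after median-of-ratios scaling, 4270 with 3 principal components, 1609 with ZT as a factor, 271 without the fourth-coded mice, 2066 by edgeR (2107 with no filter) and 2417 by DESeq2. The 3 members became 5 after median-of-ratios scaling and by edgeR (also 5 with no filter) and DESeq2, 8 with principal components, with ZT as a factor and with a term for the fourth-coded mice, and 1 without control ZT18. They became 2 in limma with no filter (585 genes) and 2 with the mitochondrial share in the model (1125 genes). For the difference in rhythm, 0 genes became 237 with principal components and 17 by edgeR with no filter, with 0 members. For the fourth-coded mice, 2651 genes became 1714 with no filter, 81 with the mitochondrial share, 40 in control and 20 in PLX5622 mice alone, with 9 members (without *Nr4a1*) in control mice and 10 in PLX5622 mice. At ZT18, 118 genes became 250 by edgeR, and 0 members became 9 without the fourth-coded mice, 7 with a term for them and 1 (*Nr4a1*) by edgeR. The ZT18 difference less the mean of the other times was called for 6 genes and 3 members without the fourth-coded mice and for 1 gene with the term. In control mice, the 11 genes of JTK_CYCLE became 0 with no filter, 60 after median-of-ratios scaling, 80 on CPM, 1 without the fourth-coded mice and 36 by limma. In PLX5622 mice, 89 became 43, 161, 197, 4 and 135 under the same alternatives. The median correlation of 0.880 was 0.777 by Spearman's rho and 0.513 without the fourth-coded mice.

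Leaving out 1 library at a time gave 429 to 634 genes for diet, 619 to 876 genes and 2 to 5 members for rhythm, 0 genes for the difference in rhythm, 1120 to 3122 genes and 10 members for the fourth-coded mice, 0 to 18 and 38 to 114 genes for JTK_CYCLE in control and PLX5622 mice, and a median correlation of 0.846 to 0.887. Without the fourth-coded mice, the ZT18 difference was called for 96 to 119 genes and 4 to 9 members. The labels do not say whether the replicate numbers mark a shared cage or day. In 11 groups the mouse numbered 4 was the fourth-coded mouse. Of 23 same-numbered pairs, 7 had a correlation over 0.1, and the numbers were not taken as pairs. With a replicate block, rhythm was called for 1043 genes and 8 members, diet for 578 genes, and the median correlation was 0.668. The depth limits *Egr2* most, with as few as 4 counts in a library.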
